A study of Mus musculus with 31 samples.

Results

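The proximal tubule transporters and brush border proteins are a set of 30 genes that carry solutes across, or sit on the surface of, the first segment of the kidney tubule. They were read here by symbol from every probe annotated to them on an Illumina mouse bead array of 25697 probes. Of the 30 genes 24 had at least 1 probe, with 35 probes between them. In kidney 29 of these probes, from 21 genes, were kept because their detection p was under 0.01 on at least 3 arrays. In liver 13 probes from 7 genes were kept, on the same rule with at least 4 arrays.

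Male C57BL/6J mice, 20 to 30 weeks old, gave the RNA, which was taken from kidney, from liver and from white blood cells (WBC), and every mouse had received LPS, the endotoxin of the outer wall of gram-negative bacteria. The groups were LPS with vehicle, LPS with IVIg (pooled immunoglobulin for intravenous use) and LPS with modIVIg, a modified form whose modification is not described in the labels. Kidney had 3 vehicle, 4 IVIg and 4 modIVIg arrays, liver had 4 arrays in each group, and 7 of 8 blood arrays were usable. No group without LPS is analysed here, so every value below compares animals that share the endotoxin. The labels do not say whether the arrays of a group came from separate animals, so the p-values measure the spread between these samples, which may be technical. Doses and times are not given in the labels.

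The proximal tubule takes back most of what the glomerulus filters. Sodium-coupled carriers in its brush border draw phosphate, glucose and amino acids out of the filtrate, carriers on the opposite, blood-facing side pass them on, and organic anion and cation carriers move drugs and waste the other way. The brush border also holds peptidases that trim filtered peptides and large receptors that take up filtered protein. The cells depend heavily on mitochondria and are a main site of injury in endotoxin-driven kidney damage.

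The kidney arrays carried segment genes of the kidney. Umod, the uromodulin gene of the thick ascending limb, read 14.67 to 15.22 on its brighter probe on all 11 kidney arrays, and 20 of 27 listed genes of the loop, distal tubule and collecting duct were kept. Of the 24 members with a probe, 3 were not kept in kidney. These were Lrp2 (megalin, an endocytic receptor), detected on 1 array, and Slc13a1 (a sulphate carrier) and Slc4a4 (a bicarbonate carrier), detected on none. The genes without a probe in the annotation used were Slc5a12, Slc6a18, Slc3a1, Slc9a3, Cubn and Ggt1. The share of all probes detected ran from 34.8% to 41.2% on the kidney arrays and from 31.6% to 35.3% on the liver arrays, and the few arrays per group set how precise each value can be. All levels below are log2 values after background correction and quantile normalisation with neqc, an offset of 16 included. Each probe has its own scale, so levels are compared between arrays for 1 probe and not between genes.

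In kidneys of vehicle mice, most of these genes stood far above the level of the same probe in liver. In a fit of both organs normalised together, 15 of the 29 probes, from 13 genes, were undetected on every liver vehicle array. They were kept through kidney alone, so a difference was built into their selection, and their folds are given only as bounds, against a floor set on each liver array by the dimmest detected probe, or by the gene's own probe if brighter. Among the 14 probes that at least 1 liver vehicle array detected, 11 from 5 genes were higher in kidney and 0 were lower (limma, Benjamini-Hochberg adjusted p under 0.05). The probe of Slc6a19, 1 of these 11, was detected on 1 of 4 liver vehicle arrays. It was not kept in liver, so its selection too rested on kidney alone. Over all 11568 probes kept in either organ 35.1% were higher and 31.7% lower, and 36.4% were higher at an unadjusted p under 0.05. Whether kidney and liver arrays of the same number came from 1 mouse is not given in the labels, so the organs were compared as unpaired samples, which bears on each p-value between organs.

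Slc34a1, the main sodium-phosphate cotransporter of the brush border, was at least 535-fold higher in kidney than in liver, with means of 15.76 in 3 kidney and 4.86 in 4 liver arrays. Slc22a6, an organic anion transporter of the blood-facing side, was at least 195-fold higher and Mep1a, a subunit of the brush border metalloprotease meprin, at least 111-fold higher. Slc5a8, a sodium-coupled carrier of lactate and other monocarboxylates, was at least 88.1-fold higher, and the urate carrier Slc22a12 at least 80.3-fold. The remaining bounds above 1 were 38.0-fold and 11.3-fold for the probes of the cystine carrier Slc7a9, 23.6-fold for Slc6a20b, 15.9-fold for Slc22a2, 3.74-fold for Dpep1, 3.50-fold for Slc7a8, 3.08-fold for Slc34a3 and 2.90-fold for Slc5a2. For Slc22a8 and the dimmer probe of Slc7a8 the bound was under 1, so no fold is given.

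The higher genes that liver also detected included a drug extruder, a dicarboxylate carrier and the water channel. The drug and cation extruder Slc47a1 was higher in kidney by 3.77 ± 0.20 (log2 change ± standard error, used throughout), a dicarboxylate carrier of the blood-facing side, Slc13a3, by 3.24 ± 0.28 and the water channel Aqp1 by 2.88 ± 0.18, each on its brightest probe (limma adjusted p from 8.92e-13 to 2.23e-09). The 3 probes that did not pass were those of the sulphate and oxalate exchanger Slc26a1 at 0.28 ± 0.38, of the peptidase Anpep at −0.12 ± 0.18 (limma adjusted p = 0.525 and 0.588) and of Slc3a2, the shared heavy chain of several amino acid exchangers. No change is read for Slc3a2, whose kidney vehicle arrays lay far apart (9.16 and 9.02 in replicates 1 and 2, and an undetected 4.94 in replicate 3, normalised within kidney). Its joint means were 7.51 in kidney and 7.13 in liver, while the fit with the block gave −0.24 ± 0.31, of the opposite sign. In white blood cells Aqp1 was detected on 7, 7 and 5 of 7 arrays by its 3 probes and Slc3a2 on 3 arrays, and no probe of the other members was detected on any.

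Promoter windows were read for the members because these genes share a cell type. RefSeq sequences (GRCm38.p6), from 250 bases before to 50 bases after each annotated start, were at hand for 25 members with 35 starts. The hexamer GTTAAT, the core of the binding site of HNF1 (a transcription factor of kidney and liver epithelium), was found on either strand in 5 of 35 windows (14.3%), against 7.1% of 32851 windows of all genes. The genes were Slc22a6, Slc22a8, Slc34a1, Slc3a1 and Slc7a7. The full palindromic HNF1 site was in 0 windows of the members and 0.0396% of all. The HNF4 letters CAAAGTCCA were in 1 window, of Slc3a1 (2.86% against 0.475%), and TATAAA in 4 (11.4% against 13.6%). The sequences below show the members with the highest kidney bounds, Slc34a1 and Slc22a6, beside Slc7a8 and Slc6a19, which had the lowest statistics in the comparison of modIVIg with vehicle in kidney. Both strands were searched for every motif, and the full site would contain the hexamer. Capitals mark the hexamer and TATAAA, or their reverse complements. The pair with the hexamer was picked after the matches were known.
Slc34a1 promoter, chr13:55399398-55399697, plus strand: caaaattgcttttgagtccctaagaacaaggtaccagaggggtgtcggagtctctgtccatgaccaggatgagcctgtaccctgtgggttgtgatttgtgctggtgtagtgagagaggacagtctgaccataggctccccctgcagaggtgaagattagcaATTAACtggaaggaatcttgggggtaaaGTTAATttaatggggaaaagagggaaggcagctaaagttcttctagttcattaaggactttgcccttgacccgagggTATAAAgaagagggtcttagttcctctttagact
Slc22a6 promoter, chr19:8617746-8618045, plus strand: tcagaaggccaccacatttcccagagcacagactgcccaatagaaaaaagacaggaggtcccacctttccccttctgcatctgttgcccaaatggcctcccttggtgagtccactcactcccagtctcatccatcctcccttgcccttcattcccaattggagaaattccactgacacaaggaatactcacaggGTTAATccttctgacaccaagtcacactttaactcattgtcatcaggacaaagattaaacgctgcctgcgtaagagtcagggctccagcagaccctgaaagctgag
Slc7a8 promoter, chr14:54781837-54782136, minus strand: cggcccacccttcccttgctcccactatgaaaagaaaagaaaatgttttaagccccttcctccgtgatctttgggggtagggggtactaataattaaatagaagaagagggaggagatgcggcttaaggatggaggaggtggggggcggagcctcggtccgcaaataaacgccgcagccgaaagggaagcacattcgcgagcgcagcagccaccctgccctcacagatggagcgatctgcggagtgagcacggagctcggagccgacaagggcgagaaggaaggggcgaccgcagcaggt
Slc6a19 promoter, chr13:73692587-73692886, minus strand: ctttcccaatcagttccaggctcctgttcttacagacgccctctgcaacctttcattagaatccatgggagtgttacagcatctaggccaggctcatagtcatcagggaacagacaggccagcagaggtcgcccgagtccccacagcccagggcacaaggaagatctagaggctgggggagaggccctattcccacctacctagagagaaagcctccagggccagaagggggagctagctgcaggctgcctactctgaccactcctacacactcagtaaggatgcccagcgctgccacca
In Slc34a1 the hexamer lay 89 and 61 bases before the start, and TATAAA began 16 bases after it. In Slc22a6 the hexamer lay 56 bases before the start. No searched motif was found in the windows of Slc7a8 and Slc6a19. These matches describe letters only.

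The kidney arrays fell into 2 sets that cut across the treatments, replicates 1 and 2 of each group against replicates 3 and 4, and 3 of the transporter and brush border genes differed sharply between them. Mep1a lay between 14.30 and 14.48 on the 6 arrays of the first set and between 11.43 and 11.75 on the 5 arrays of the second. Slc3a2 lay between 8.73 and 9.47 and was detected on 6 of 6 arrays of the first set, and lay between 4.91 and 5.39 with detection on 0 of 5 in the second, a difference of at least 5.99-fold. Slc6a20b, which belongs to a family of proline and imino acid carriers, read 11.61 to 11.95 against 10.21 to 10.66, and whether its probe also reads the near copy Slc6a20a was not tested. In none of these genes did the sets overlap, whatever the treatment.

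**Figure D1:**
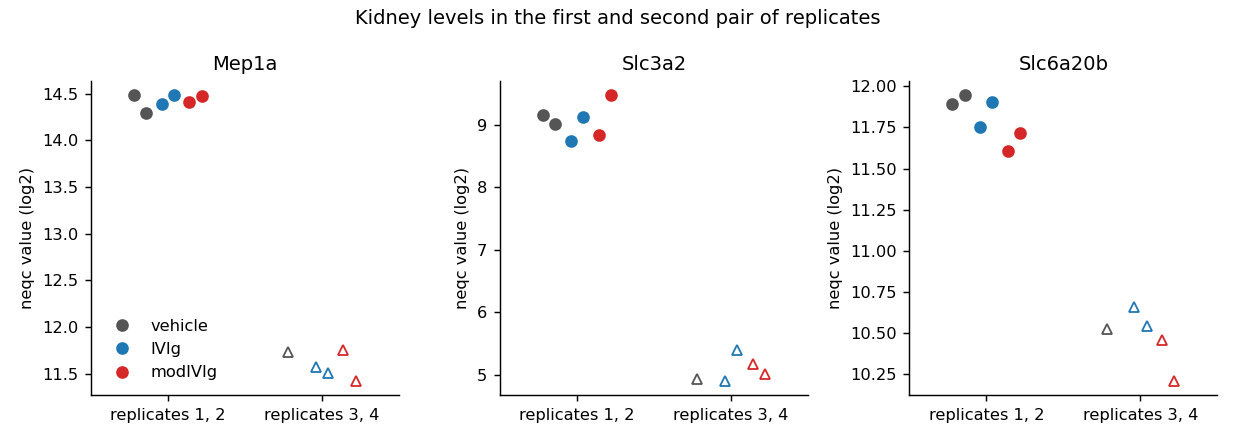
Kidney level (neqc value, log2) of Mep1a, Slc3a2 and Slc6a20b on each of 11 arrays, with replicates 1 and 2 as filled circles and replicates 3 and 4 as open triangles, coloured by treatment. For Mep1a every array of the first set is at 14.30 or above and every array of the second at 11.75 or below, and the treatments mix within each set.

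The other 26 kept probes moved by less than 1 between the sets. Of the 29 kept probes 3 were lower in the second set by more than 1 on the log2 scale, against 11.3% of all 11010 kept kidney probes, and 0 were higher by that much, against 0.327%. The sets did not overlap for 4 of 29 probes, against 33% of all probes. The fourth of these was Slc34a3, a sodium-phosphate cotransporter of the brush border, which was 0.54 higher in the second set. The split is described without a test. In the first set 39.9% to 41.2% of all probes were detected, and 34.8% to 39.1% in the second. Its cause was not tested, and vehicle had 2 arrays in the first set and 1 in the second. In liver the level of Slc3a2 was lower in replicates 1 and 2 than in 3 and 4 under vehicle (6.68 and 6.17 against 7.36 and 7.04) and modIVIg (7.07 and 7.65 against 7.91 and 7.71), the opposite order to kidney, and the numbers mixed under IVIg (7.06 and 5.95 against 6.68 and 7.34). The kidney fits below therefore hold the set as a block.

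IVIg with LPS against vehicle with LPS asks whether the unmodified product alters the kidney's response to endotoxin. No transporter or brush border gene passed. Of 11010 probes 0 passed in limma (0% called), with 202 lower (1.83%) and 222 higher (2.02%) at an unadjusted p under 0.05, and of the 29 member probes 0 reached that unadjusted level in either direction. The groups overlapped for all 29 probes, while over all probes they did not for 0.472% in the lower and 1.16% in the higher direction. The median log2 change was −0.02 over the member probes, 17 lower and 12 higher, and 0.01 over all probes.

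The 3 genes with the highest statistics were Aqp1 at 0.30 ± 0.18, Slc34a3 at 0.15 ± 0.16 and Slc5a8 at 0.10 ± 0.11. The lowest were Slc7a8, a neutral amino acid exchanger of the blood-facing side, at −0.20 ± 0.24, Dpep1, a dipeptidase of the brush border, at −0.14 ± 0.25 and Mep1a at −0.05 ± 0.11. Member adjusted p-values were all 0.999 (limma). The 95% intervals of these 6 changes reached from −0.73 (Slc7a8) to 0.71 (Aqp1), so changes up to these ends were not excluded for these genes. Others were narrower, such as that of Mep1a from −0.30 to 0.20. Aqp1 carries 2 further probes, at 0.19 ± 0.23 and 0.20 ± 0.23.

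IVIg replicate 3 stood apart from the other kidney arrays. It was the highest of the 11 arrays for 17 of 29 member probes, and its median deviation from the mean of its own set was 0.43 over the member probes. Over 15 probes of tubular injury genes the same array deviated by −0.93. The injury genes Havcr1 (kidney injury molecule), Krt20 and Sox9 read 6.92, 5.29 and 4.78 there, against 7.85 to 11.46, 7.42 to 10.72 and 7.17 to 8.73 on the other arrays, and Lcn2 (an iron-scavenging protein of stressed tubules) 12.59 against 14.43 to 15.29. These 4 injury genes were picked after their values were seen. At the other end, modIVIg replicate 4 was the lowest array for 10 member probes and modIVIg replicate 1 for 9.

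**Figure D2:**
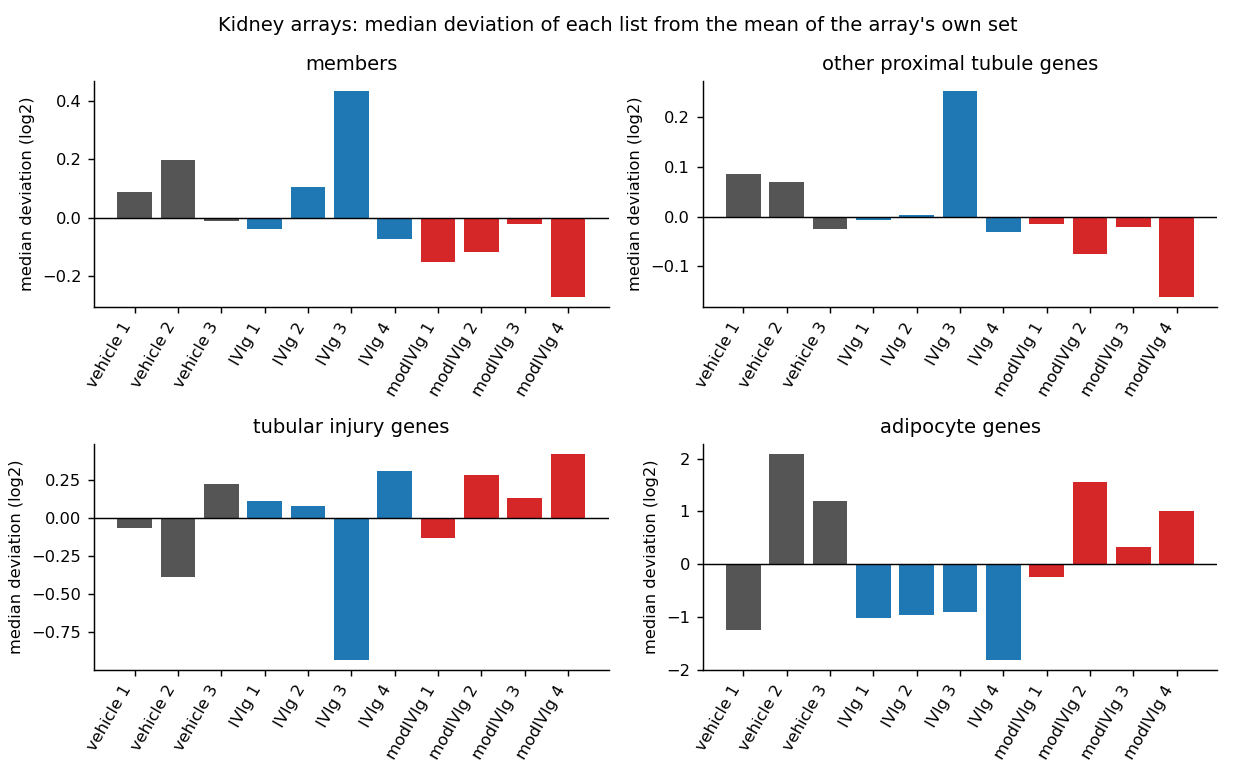
Median deviation (log2) of 4 gene lists on each of 11 kidney arrays from the mean of the array's own set, with vehicle grey, IVIg blue and modIVIg red, and a vertical scale of its own for each list. IVIg replicate 3 has the tallest bar for the members (0.43) and the deepest for the injury genes (−0.93). Adipocyte genes are below 0 on all 4 IVIg arrays, and also on vehicle replicate 1 (−1.25) and modIVIg replicate 1 (−0.25).

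ModIVIg with LPS against vehicle with LPS asks the same of the modified product. The amino acid carriers Slc6a19, Slc7a8 and Slc7a7, the dicarboxylate carrier Slc13a3 and the dipeptidase Dpep1 had the lowest values among the members, between −0.48 and −0.69 on their brightest probes, but no gene passed. Of 11010 probes 0 passed (0% called), with 372 lower (3.38%) and 476 higher (4.32%) at an unadjusted p under 0.05. Among the member probes 5 of 29 (17.2%), from 4 genes, were lower at that unadjusted level and 0 were higher. The dimmer probe of Slc7a8, which is among them, was detected on no modIVIg array and was kept through the groups where it is high, and without it the count was 4 of 28. The median was −0.24 over the 29 member probes and 0.01 over all probes, with 25 member probes lower against 49.1% of all. Member adjusted p-values ran from 0.581 to 0.977 (limma).

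Slc7a8 stood at 8.87, 8.91 and 8.59 in the vehicle kidneys and at 7.85, 8.07, 8.67 and 7.99 in the modIVIg kidneys. Replicate 3 of modIVIg lay inside the vehicle range and the others below it, and the fitted change was −0.69 ± 0.24 (limma adjusted p = 0.583). The dimmer probe of Slc7a8 read 6.10 to 6.77 under vehicle and 5.47 to 5.96 under modIVIg without overlap. It was detected on 2 of 3 vehicle, 3 of 4 IVIg and 0 of 4 modIVIg arrays, so it was kept through the other groups and has only a bound, at least 1.12-fold lower (fitted −0.78 ± 0.24, limma adjusted p = 0.581).

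Slc6a19, the main neutral amino acid carrier of the brush border, read 10.37, 11.05 and 10.66 under vehicle and 9.56, 10.13, 10.48 and 10.08 under modIVIg. Of the modIVIg arrays 3 lay below the lowest vehicle array, and the change was −0.67 ± 0.23 (limma adjusted p = 0.583). Slc6a20b, with the block for its split between the sets, was at −0.24 ± 0.10 (limma adjusted p = 0.645). Without the block its value was −0.46, which mixes in the difference between sets.

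Slc7a7, an exchanger of cationic and neutral amino acids on the blood-facing side, read 9.42, 9.08 and 8.91 under vehicle and 8.17, 8.74, 8.79 and 8.69 under modIVIg, so the groups did not overlap. The change was −0.57 ± 0.28 on that probe and −0.45 ± 0.26 on its other, where the groups overlapped (limma adjusted p = 0.661 and 0.720). Groups that did not overlap were found for 4 of 29 member probes in the lower direction, against 2.23% of all probes, and for 1, Slc5a8, in the higher direction, against 2.87%. Without the dimmer probe of Slc7a8 they were 3 of 28. The 4 probes were those of Slc7a7, Slc26a1 (−0.48 ± 0.27), Slc7a9 (−0.13 ± 0.12) and the dimmer one of Slc7a8.

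Slc13a3 read 11.49, 11.90 and 11.27 under vehicle and 11.29, 10.81, 10.95 and 10.86 under modIVIg. Replicate 1 of modIVIg overlapped with vehicle. The change was −0.55 ± 0.25, and the other probe, at −0.66 ± 0.28, lay in the same direction (limma adjusted p = 0.647 and 0.630). Dpep1 was at −0.48 ± 0.25, made up of −0.89 in replicates 1 and 2 and 0.09 in replicates 3 and 4.

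**Figure D3:**
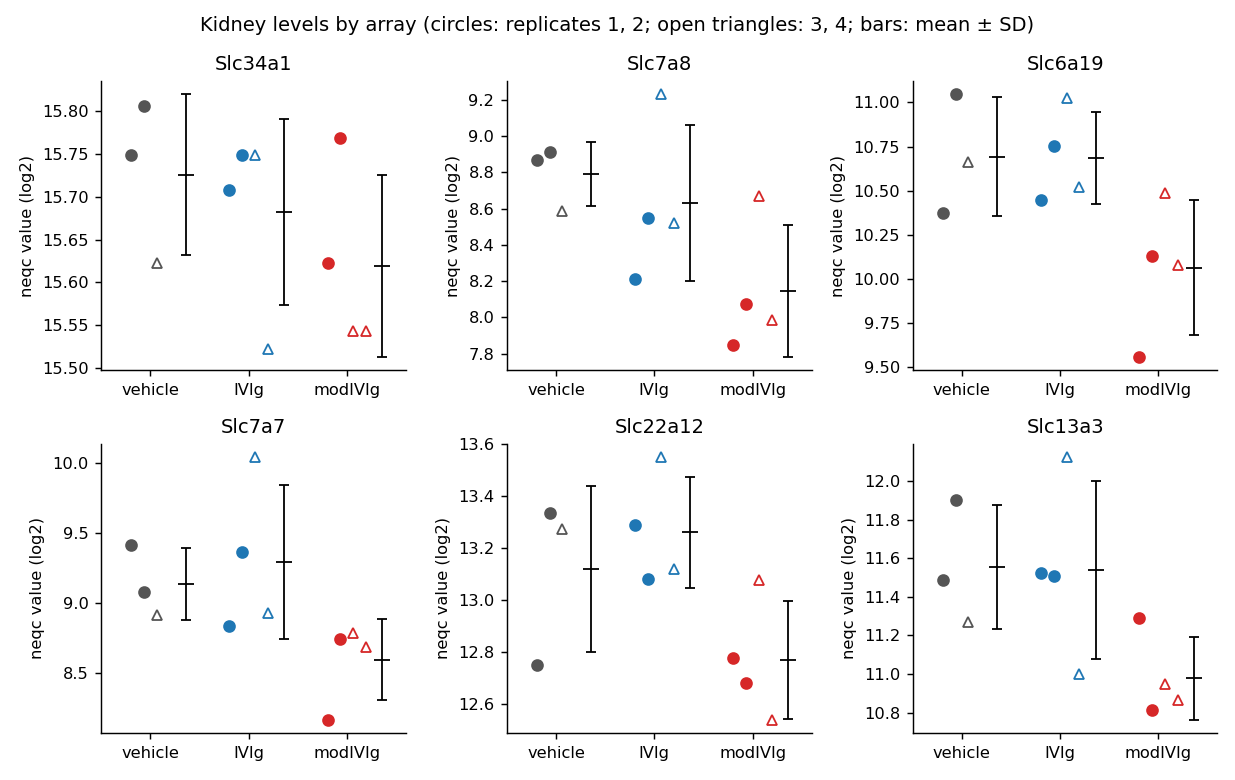
Kidney level (neqc value, log2) on the brightest kept probe of 6 members for each array of the 3 groups, with the mean and SD to the right of each group (3 vehicle, 4 IVIg and 4 modIVIg arrays). Slc34a1, on a probe at the top of the scale, reads 15.52 to 15.81, and Slc7a7 is the panel in which all modIVIg arrays lie below all vehicle and IVIg arrays.

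The carriers of phosphate, glucose and monocarboxylates lay closer to 0 than Slc6a19, Slc7a8 and Slc7a7 in the same comparison. Slc34a1 read 15.75, 15.81 and 15.62 under vehicle and 15.62, 15.77, 15.54 and 15.54 under modIVIg, a change of −0.08 ± 0.10. Its probe was among the 17 brightest of 25697 on every kidney array, where normalised values tie between arrays, and whether it was near saturation, which would compress a change, was not tested. The 3 members with the highest statistics were Slc5a8 at 0.16 ± 0.11, Slc34a3 at 0.09 ± 0.16 and Slc3a2 at 0.08 ± 0.19, and Slc5a2, the high-capacity glucose carrier, was at 0.05 ± 0.13. None of these passed (limma adjusted p from 0.787 to 0.961).

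Among the carriers of organic ions, the urate carrier Slc22a12 was at −0.38 ± 0.18, the anion carrier Slc22a8 at −0.35 ± 0.23, Slc47a1 at −0.21 ± 0.13, Slc22a6 at −0.20 ± 0.18 and the organic cation carrier Slc22a2 at −0.15 ± 0.14. All 5 were lower without passing (limma adjusted p from 0.661 to 0.850). The probe of Slc22a8 was detected on 3 of 3 vehicle but 2 of 4 modIVIg arrays, so its modIVIg values lay near the floor. The cystine carrier Slc7a9 was at −0.13 ± 0.12 and Anpep at −0.15 ± 0.21. Mep1a was at −0.02 ± 0.11, and Aqp1 at −0.06 ± 0.18 on its brightest probe and at −0.20 ± 0.23 and −0.28 ± 0.23 on its other probes.

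The direction was shared by the sets more often than over all probes. Of 29 member probes 20 were lower within both sets, against 27.8% of all probes, with medians of −0.26 in replicates 1 and 2 and −0.17 in replicates 3 and 4. These probes come from 21 genes, so they are not separate observations. In replicates 3 and 4 every direction rests on 1 vehicle array. Slc6a19 was at −0.86 and −0.38, Slc7a8 at −0.93 and −0.26, and Slc13a3 at −0.64 and −0.37 in the 2 sets. Leaving out each kidney array in turn left 23 to 26 of the 29 probes lower and 1 to 11 of them lower at an unadjusted p under 0.05. The count was 1 without vehicle replicate 2, against 2.05% of all probes lower at that level. It was 3 without vehicle replicate 1 (4.08% of all), IVIg replicate 1 or 2 (2.99%, 2.91%), or modIVIg replicate 2 or 4 (2.84%, 2.62%). It was 11 without IVIg replicate 3, when 5.85% of all probes were lower at that level. No member probe passed in any of these 11 fits.

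**Figure D4:**
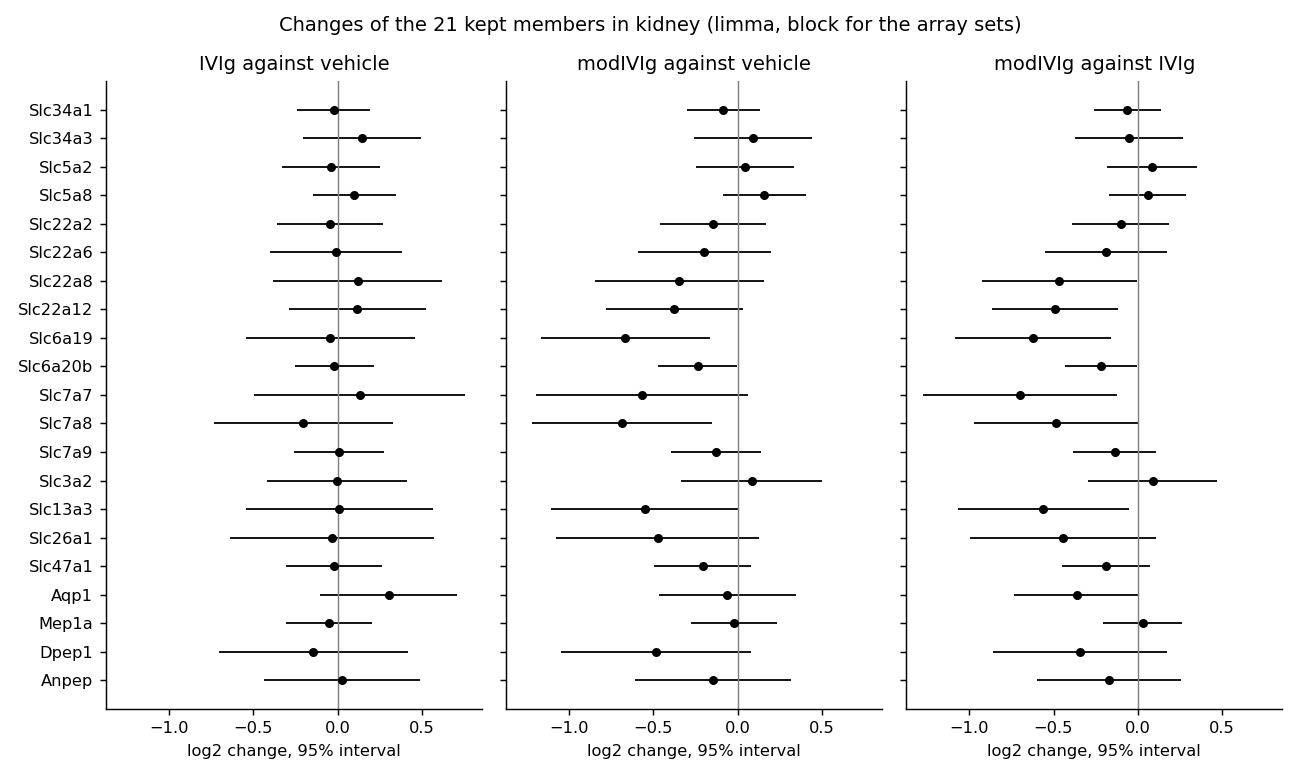
Fitted log2 change with its 95% interval for the 21 kept members, each on its brightest probe, in the 3 kidney comparisons, with the vertical line at 0. In each comparison of modIVIg 17 of the 21 points are below 0, the 2 comparisons use the same modIVIg arrays, and no member passed after adjustment.

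ModIVIg against IVIg, both with LPS, asks whether the modified form differs from the unmodified one. The IVIg arrays enter this comparison and the first, the vehicle arrays the first and the second, and the modIVIg arrays the second and this one, so the comparisons are not independent. Slc7a7 and Slc6a19 had the lowest values on their brightest probes, and no gene passed. Of 11010 probes 0 passed (0% called), with 554 lower (5.03%) and 484 higher (4.4%) at an unadjusted p under 0.05. Of the member probes 9 of 29 (31%), from 8 genes, were lower at that level and 0 were higher (8 of 28 without the dimmer probe of Slc7a8), and 25 were lower in all, against 51.3% of all probes. The member median was −0.22 against −0.01 over all probes, and member adjusted p-values ran from 0.410 to 0.958 (limma).

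Slc6a19 read 10.44, 10.75, 11.02 and 10.52 under IVIg, and its change was −0.62 ± 0.21 (limma adjusted p = 0.430). Slc22a12 read 13.29, 13.08, 13.55 and 13.12 under IVIg and 12.78, 12.68, 13.08 and 12.54 under modIVIg; the groups did not overlap, although IVIg replicate 2 and modIVIg replicate 3 both rounded to 13.08, with a change of −0.49 ± 0.17 (limma adjusted p = 0.437). Slc7a7 read 8.84, 9.37, 10.05 and 8.93 under IVIg, all above the modIVIg arrays, with a change of −0.70 ± 0.26 (limma adjusted p = 0.460). Groups did not overlap for 3 of 29 member probes in the lower direction, against 1.28% of all probes, and the third was the dimmer probe of Slc7a8, which leaves 2 of 28 without it. In the higher direction 0 did, against 1.11%.

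Slc13a3 was at −0.56 ± 0.23 and −0.60 ± 0.26 on its 2 probes and Slc22a8 at −0.47 ± 0.21, and the 3 probes of Aqp1 lay between −0.36 and −0.48. The probe of Slc22a8, among the lower ones at the unadjusted level, was detected on 2 of 4 modIVIg and 4 of 4 IVIg arrays. Its modIVIg values thus lay near the floor. The highest statistics belonged to Slc5a2 at 0.08 ± 0.12, Slc5a8 at 0.06 ± 0.10 and Slc3a2 at 0.09 ± 0.17, the last undetected in replicates 3 and 4. Within the sets 24 of 29 probes were lower in both, against 29.2% of all probes. For Aqp1 the brightest probe was at −0.06 in replicates 1 and 2 and at −0.66 in replicates 3 and 4, where IVIg replicate 3 lies.

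Without IVIg replicate 3 the count of member probes lower at an unadjusted p under 0.05 was 4 of 29, against 5.14% of all probes, and the member median was −0.15, with 25 probes below 0. Leaving out each of the 11 arrays in turn gave counts from 3 (without modIVIg replicate 4) to 10 (without IVIg replicate 1), against 3.55% and 4.74% of all probes. The count was also 5 or fewer without vehicle replicate 2 (4.8% of all), IVIg replicate 2 (3.73%) or modIVIg replicate 1 (3.85%). It was 6 without vehicle replicate 1 (4.79%). Slc7a7 went from −0.70 to −0.44 without IVIg replicate 3. No member passed in any of these fits.

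Other genes of the proximal tubule were read from a list of 76, of which 59, with 79 probes, were kept in kidney. Under IVIg their median was 0.00 against vehicle, with 0 lower and 1 higher at an unadjusted p under 0.05. Under modIVIg the median was −0.13 against vehicle and −0.13 against IVIg, with 10 lower in each, and 1 and 2 higher. None passed in any kidney comparison. The genes named below were ranked on the probe of each with the highest statistic, so other probes of a gene may lie lower. Against vehicle under modIVIg the lowest statistics were those of Ass1, an enzyme of arginine synthesis, at −0.38 (limma adjusted p = 0.583) and Gatm, which makes the creatine precursor, at −0.85 (0.597). Hpd, a tyrosine-degrading enzyme, was highest at 0.67 (0.581), followed by Napsa, a protease, at 0.23 (0.661). Against IVIg, Hpd was at 0.55 and Dab2, an adaptor of the endocytic receptors, at 0.33, while the scaffold Slc9a3r1 was at −0.30 and the chloride-proton exchanger Clcn5 at −0.47 (limma adjusted p from 0.357 to 0.513). Under IVIg against vehicle the extremes were Clcn5 at 0.28, Vil1 (villin of the microvilli) at 0.18, Gatm at −0.57 and Ezr (ezrin) at −0.20. Gatm and Clcn5 also read lower in replicates 3 and 4, at 4.79 to 4.94 and 4.71 to 5.20, than in replicates 1 and 2, at 6.83 to 8.96 and 6.23 to 7.03.

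Marker lists of other cells and states also differed between the kidney groups. Tubular injury genes, 15 probes of 14 genes, had medians of −0.12 for IVIg against vehicle, 0.20 for modIVIg against vehicle and 0.24 for modIVIg against IVIg, and their mean level spanned 9.46 to 10.10 under vehicle, 8.61 to 10.31 under IVIg and 9.96 to 10.40 under modIVIg. Loop, distal and collecting duct genes, 28 probes, had medians of 0.10, −0.15 and −0.23. Their probes lower in the 3 comparisons were 11, 23 and 20 of 28, and those of the injury genes 10, 3 and 3 of 15. Adipocyte genes, 10 probes of 10 genes, had medians of −1.81, −0.04 and 1.87, with mean levels of 7.38 to 10.67 under vehicle, 6.79 to 7.72 under IVIg and 8.12 to 9.94 under modIVIg, and with 7 of 10 lower under IVIg against vehicle and 8 of 10 higher under modIVIg against IVIg at an unadjusted p under 0.05. Red cell genes, 4 probes of 4 genes, had medians of 0.11, −0.15 and −0.11, with mean levels of 10.23 to 10.94 under vehicle, 10.37 to 10.94 under IVIg and 9.75 to 10.59 under modIVIg, where replicates 3 and 4 were the lowest of all kidney arrays. Endothelial genes, 8 probes, had medians of 0.11, −0.15 and −0.25, with 2, 6 and 8 of 8 lower. Podocyte genes, 4 probes, had medians of 0.23, −0.12 and −0.40, with 0, 4 and 4 of 4 lower. Under modIVIg against vehicle and against IVIg, medians were 0.19 and −0.15 for leukocyte genes and −0.35 and 0.02 for fibroblast genes. For hepatocyte genes they were 0.01 and −0.09. Of the adipocyte list Plin1, Retn, Fabp4 and Lipe were not kept. None of these lists held a probe that passed, and their part in the values of the members was not tested. In whole kidney RNA, fewer proximal tubule cells and less of a transcript per cell cannot be told apart.

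In liver the members kept were Aqp1, Slc47a1, Slc13a3, Slc7a7, Slc26a1, Slc3a2 and Anpep. Under IVIg against vehicle none passed. Of 9114 probes 0 passed (0% called), with 88 lower (0.966%) and 69 higher (0.757%) at an unadjusted p under 0.05, and 0 of 13 member probes reached that level. The highest statistics were those of Anpep at 0.24 ± 0.14, Slc26a1 at 0.09 ± 0.36 and Slc13a3 at 0.06 ± 0.25. The lowest were those of Slc47a1 at −0.13 ± 0.22, Aqp1 at −0.06 ± 0.15 and Slc7a7 at −0.07 ± 0.26 (limma adjusted p = 1.00 for each).

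Under modIVIg against vehicle Aqp1 fell in liver, the 1 member probe of 13 to pass. It read 10.39, 10.92, 10.80 and 10.66 under vehicle and 10.03, 9.78, 10.06 and 9.97 under modIVIg, so that every modIVIg array was below every vehicle array, and the change was −0.73 ± 0.15 (limma adjusted p = 0.0225). The other 2 probes of Aqp1 were at −0.87 ± 0.24 and −0.79 ± 0.23 without passing, and their groups did not overlap either (limma adjusted p = 0.0596 and 0.0641). Over all probes 256 passed as lower (2.81%) and 151 as higher (1.66%). At an unadjusted p under 0.05, 980 were lower (10.8%) and 1154 higher (12.7%). Of the 13 member probes 7, from only 3 genes, were lower at that level and 1 was higher.

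The other members of the liver shared the direction apart from Slc3a2. Slc47a1 was at −0.76 ± 0.22 (limma adjusted p = 0.0634) and Anpep at −0.45 ± 0.14 (0.0784), both with groups that did not overlap. Slc13a3 was at −0.34 ± 0.25, Slc7a7 at −0.43 ± 0.26 and Slc26a1, undetected on all 4 modIVIg arrays and kept through the other groups, was at least 1.17-fold lower. Slc3a2 read 6.68, 6.17, 7.36 and 7.04 under vehicle and 7.07, 7.65, 7.91 and 7.71 under modIVIg, a change of 0.77 ± 0.31 that did not pass (0.163). The member median was −0.72 over 13 probes, against 0.04 over all 9114, and it fell on a dimmer probe of Slc47a1. The 2 dimmer probes of that gene, both among the 7 lower at the unadjusted level, were detected on 2 and 3 of 4 vehicle arrays. Under modIVIg each was detected on 1 of 4, so these values lay near the floor. On the brightest probe of each of the 7 members the median was −0.45. Over the 13 probes it was −0.3452 with quantile normalisation of uncorrected signals and −0.3463 with the authors' values. Of the 13 probes 12 were lower, against 46% of all. Groups that did not overlap were found for 5 member probes, from 3 genes, in the lower direction, against 8.46% of all.

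**Figure D5:**
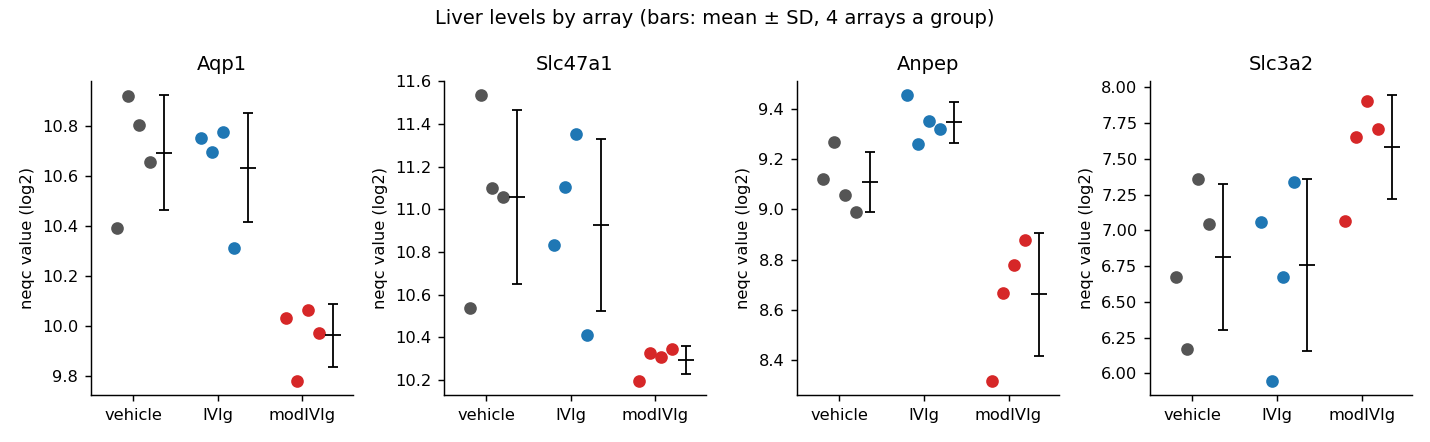
Liver level (neqc value, log2) of Aqp1, Slc47a1, Anpep and Slc3a2 on their brightest probes, 4 arrays a group, with the mean and SD to the right of each group. The modIVIg arrays of Aqp1, between 9.78 and 10.06, lie below all vehicle and IVIg arrays, and those of Slc3a2 lie towards the top of the scale.

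The Aqp1 call in liver did not survive every array left out. Its adjusted p (limma) was 0.0695 without vehicle replicate 2, 0.0616 without vehicle replicate 3, 0.0518 without vehicle replicate 4, 0.0586 without modIVIg replicate 1, 0.06 without modIVIg replicate 2 and 0.0541 without modIVIg replicate 4, with changes between −0.65 and −0.75. It held without any of the 6 other arrays. Aqp1 is also known from red cells and endothelium, and markers of both were lower in the same livers. Red cell genes, 4 of 4 probes lower, had mean levels of 9.78 to 10.32 under modIVIg and 10.54 to 11.03 under vehicle. Endothelial genes, 5 of 6 probes lower, had levels of 7.03 to 7.48 against 7.44 to 7.82, with Kdr, Emcn, Ehd3, Tek and Tie1 not kept. The direction was not particular to these 2 lists, but the sizes differed. Lower probes were 9 of 11 for leukocyte, 14 of 16 for hepatocyte and 3 of 5 for fibroblast genes. They were 8 of 11 for tubular injury and 37 of 42 for other proximal tubule genes, against 46% of all probes. Median changes were −0.30 for red cell, −0.39 for endothelial, −0.41 for leukocyte and −0.51 for fibroblast genes. For hepatocyte genes the median was only −0.03, and it was −0.14 for tubular injury and −0.43 for other proximal tubule genes. In white blood cells the Aqp1 probes were detected on 5 to 7 of 7 arrays. The part of any of these cell types in the Aqp1 result was not tested.

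Under modIVIg against IVIg Anpep fell in liver, again the 1 member probe of 13 to pass. It read 9.45, 9.26, 9.35 and 9.32 under IVIg and 8.32, 8.67, 8.78 and 8.88 under modIVIg, with no overlap, and the change was −0.68 ± 0.14 (limma adjusted p = 0.0485). Over all probes 64 passed as lower (0.702%) and 13 as higher (0.143%). Aqp1 was at −0.67 ± 0.15 (0.0550), Slc47a1 at −0.63 ± 0.22 (0.177), Slc26a1 at least 1.24-fold lower and Slc3a2 at 0.83 ± 0.31 (0.212). The member median was −0.63, against 0.04 over all probes, but −0.3252 and −0.3259 under the same 2 alternatives. At an unadjusted p under 0.05, 7 of 13 member probes, from 4 genes, were lower and 1 was higher, against 8.08% and 8.03% of all probes. Without Slc26a1, undetected under modIVIg, 6 of 12 were lower. Groups did not overlap for 5 member probes, from 3 genes, in the lower direction, against 4.58% of all. The 2 dimmer probes of Slc47a1 are both among these 5, and 1 of them is among the 7. Each was detected on 4 of 4 IVIg but 1 of 4 modIVIg arrays, so their modIVIg values lay near the floor. The call for Anpep lay close to the threshold. It held without vehicle replicate 2, IVIg replicate 3 or IVIg replicate 4, with adjusted p-values (limma) from 0.0286 to 0.0494, and was lost without each of the 9 others. The adjusted p-values (limma) were then 0.0575, 0.0669 and 0.0723 without vehicle replicates 1, 3 and 4, 0.103 (IVIg replicate 1 left out) and 0.107 (IVIg replicate 2 left out). They were 0.123, 0.0923, 0.0882 and 0.0709 with the respective modIVIg arrays, from 1 to 4, left out.

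Of the other listed proximal tubule genes, 37 with 42 probes were kept in liver, where many serve hepatocytes. Against vehicle 7 of 42 probes fell and 0 rose under modIVIg, with a median of −0.43. Their genes, named after their values were seen, were Keg1 (an acyltransferase family gene, −2.41), Slc2a2 (the glucose transporter of hepatocytes, −1.52), Car14 (a carbonic anhydrase, −0.81), Hpd (−0.70), Pck1 (gluconeogenesis, −0.68) and Dpp4 (a peptidase, −0.67), and limma adjusted p ran from 0.0146 to 0.0424 on these probes. The Slc2a2 probe was the one of its kept probes with the least negative statistic. It averaged 5.24 under modIVIg, below the 5.77 of Slc26a1, which was undetected on these arrays. The size of the Slc2a2 change on this probe is therefore limited by the floor. Against IVIg 3 probes fell, Keg1 at −2.11 and Car14 at −0.87 among them. Hpd thus lay at −0.70 in liver and at 0.67, without passing, in kidney in the same comparison, and the difference between the organs was not tested for it.

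Whether the members' changes differed between kidney and liver was tested in the joint fit over 8556 probes kept in both organs. None of the 13 member probes passed in any of the 3 comparisons (limma adjusted p from 0.295 to 1.00). Over all probes 0 passed for IVIg against vehicle, 3 as lower in kidney than in liver (0.0351%) and 13 as higher (0.152%) for modIVIg against vehicle, and 1 (0.0117%) and 10 (0.117%) for modIVIg against IVIg. The lowest p among the members was that of Aqp1 under modIVIg against vehicle, whose kidney change exceeded its liver change by 0.62 ± 0.25 (limma adjusted p = 0.295). At an unadjusted p under 0.05 this was 1 of 13 member probes, against 5.84% of all probes in that direction, while 0 of 13 were lower against 6.42%. For IVIg against vehicle 0 of 13 were lower at that level, against 0.935% of all probes. Slc3a2 had the largest difference in the other direction, at −0.70 ± 0.42 (0.509). It was undetected on the kidney arrays of replicates 3 and 4, so no difference is read for it. For Slc13a3 and Slc7a7 the difference was within 1 standard error of 0 on their 4 probes under modIVIg against vehicle.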

How the data were processed

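Total RNA of 30 arrays was analysed (11 kidney, 12 liver, 7 white blood cell), and 1 blood array of the 31, modIVIg replicate 2, held no signal and was left out. The deposited table gives, per the file headers, a bead intensity for each probe, not normalised, and a detection p-value, which the authors exported with GenomeStudio 1.9.0 per the submitters' processing notes. A second deposited table holds the authors' log2 values, made with lumi and limma per the same notes. How they were normalised is not given in the sources used here, and they served as an alternative.

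Intensities were corrected and quantile normalised with neqc (limma 3.58.1, R 4.3.3, offset 16) within each organ, and jointly for comparisons between organs. A probe was kept with a detection p under 0.01 on at least 3 kidney or 4 liver arrays. Probes of a gene were fitted apart, and the kept probe with the highest mean stood for a member. For the other tubule genes, the probe with the highest moderated statistic in each comparison was read instead. Of 25697 probes 23978 had 1 symbol, 1719 had none and 0 had several. Linear models were fitted over the 3 groups of an organ and all kept probes, with empirical Bayes moderation and Benjamini-Hochberg adjustment at 0.05. The fits were tested on simulated data with known changes. Groups came from the labels.

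In kidney the array set (replicates 1 and 2 against 3 and 4) was a block. Deviations from the group means correlated by 0.617 to 0.854 between kidney arrays of the same number and by 0.626 to 0.883 between arrays of the same set with other numbers, against −0.859 to −0.500 between sets. The set was therefore used, not the number. In liver arrays of the same number correlated by −0.129 to 0.524, above 0.1 in 6 of 12 pairs, so no block was used there.

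The members and lists were chosen with earlier results of these data known. Members past the threshold were named in each comparison. Where fewer than 5 passed, the 3 with the highest and the 3 with the lowest moderated statistic were also named, and other members were named by their role. Of the other tubule genes the 2 highest and 2 lowest were named in each kidney comparison. Alternatives covered the normalisation, the detection filter, the probe rule, array weights, the prior, the samples in the fit, the block and each array left out.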

Additional observations from a re-analysis of the deposited data

Results flagged for a closer look

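In 4 of 63 groups of 4 arrays tested, 1 array lay far from the others of its group for a member, and chance gives about 1 in 20. In kidney, Slc22a6 read 14.48 in modIVIg replicate 3, against 13.98 to 14.05 in the other modIVIg arrays, which places that array above the vehicle arrays, whose highest was 14.37. Slc7a7 read 8.17 in modIVIg replicate 1, against 8.69 to 8.79, so the groups would still not overlap without it. In liver, Aqp1 read 10.31 in IVIg replicate 4, against 10.70 to 10.78, and that array was still above every modIVIg array. Slc7a7 read 5.83 in liver modIVIg replicate 2, against 6.59 to 6.74.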

How the results depend on the processing

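In kidney 0 member probes passed in any of the 75 fits of the 3 comparisons, main and alternative. For modIVIg against vehicle 1 probe of all passed without modIVIg replicate 3 (0 to 1 over the arrays left out), and for modIVIg against IVIg 1 passed with the authors' values. Without the replicate block the member median was −0.3505 for modIVIg against vehicle, and the counts of calls stayed at 0, while Slc3a2 turned to −0.5789. A block by replicate number gave −0.195. Within replicates 1 and 2, IVIg against vehicle turned Slc34a3 to −0.009646 and Mep1a to 0.04357, modIVIg against vehicle turned Slc34a3 to −0.09634 and modIVIg against IVIg turned Slc5a2 to −0.09363. Within replicates 3 and 4, Dpep1 (0.1001) and Slc7a8 (0.2891) turned for IVIg against vehicle and Slc3a2 (−0.05624) for modIVIg against IVIg. With arrays left out, values for IVIg against vehicle spanned 0 in Slc34a3 (−0.02622 to 0.2845), Mep1a (−0.1227 to 0.0337) and Dpep1 (−0.389 to 0.1396). They did so for modIVIg against vehicle in Slc34a3 (−0.07976 to 0.231) and Slc3a2 (−0.06925 to 0.2001), and for modIVIg against IVIg in Slc5a2 (−0.03111 to 0.1525) and Slc3a2 (−0.04897 to 0.2174). Member probes lower at an unadjusted p under 0.05, a count added after seeing the data, ran from 1 to 11 and from 3 to 10 in the 2 comparisons of modIVIg. The share of all probes lower at that level ran from 2.05% to 5.85% and from 3.55% to 7.24%. None of these genes had passed, and the cause was not tested.

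In liver, IVIg against vehicle spanned 0 with arrays left out for Slc26a1 (−0.3051 to 0.395), Slc13a3 (−0.1375 to 0.2251), Slc7a7 (−0.2522 to 0.1099), Aqp1 (−0.1605 to 0.04831) and Slc47a1 (−0.3054 to 0.03976), and Slc26a1 was −0.1267 with array weights. For modIVIg against vehicle the member median was −0.3452 with quantile normalisation of uncorrected signals and −0.3463 with the authors' values. Calls over all probes were 230 with no detection filter, 1306 with array weights (4 member probes), 942 with only the 2 groups (4) and 618 with a replicate block by number (3). With arrays left out they ran from 92 to 954, with 0 to 4 member probes. For modIVIg against IVIg the medians under the same 2 normalisations were −0.3252 and −0.3259, each with 2 member probes. Calls were 14 with no filter (0 members), 132 with probes detected on all arrays (2), 44 with both organs normalised together (0), 264 with array weights (2), 142 with a trended robust prior (2), 14 with only the 2 groups (0) and 204 with the block by number, and ran from 6 to 434 with arrays left out (0 to 2 members). Aqp1 for modIVIg against vehicle passed under every other setting apart from the 6 arrays named above, and Anpep for modIVIg against IVIg was lost with no filter, joint normalisation or only the 2 groups. The cause was not tested.

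Between the organs the member median in vehicle mice was 2.816 with quantile normalisation and 3.791 with each organ normalised apart, and 3.315 to 3.657 with arrays left out. The median difference in the change under modIVIg against vehicle was 0.03754 with quantile normalisation. Without the replicate block 5 probes passed for modIVIg against vehicle and 2 for modIVIg against IVIg. With arrays left out, calls ran from 0 to 12 for IVIg against vehicle, 9 to 26 for modIVIg against vehicle and 2 to 66 for modIVIg against IVIg. A block by slide was not run.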
